A study of Mus musculus with 12 samples.

Results

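Bone morphogenetic proteins (BMPs) and the genes that read out their signal were followed through TGF-β1 treatment of mouse bone marrow mesenchymal stem cells (MSCs). The 10 genes were chosen by name: the ligands Bmp2, Bmp4 and Bmp6, the receptors Bmpr1a and Bmpr2, the secreted BMP antagonist Grem1 and the transcriptional regulators Id1, Id2, Id3 and Id4. All 10 are among the 55401 genes of the expression table, and 7 of them passed the filter for testing, FPKM (fragments per kilobase of transcript, scaled to the depth of the library) of at least 1 in at least 3 of 12 libraries, together with 12016 genes in all. Bmp2, Bmp6 and Id4 lay below that filter.

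The cells were commercial MSCs of C57BL/6 mice, and each of the 4 groups held 3 mRNA libraries. MSCs of the first group were untreated. The others all received TGF-β1 at 5 ng/mL, either alone, with culture supernatant of monocytic myeloid-derived suppressor cells (M-MDSCs), or with supernatant of granulocytic ones (G-MDSCs). Both kinds of MDSC had been grown from bone marrow cells with GM-CSF and IL-6 and sorted, as CD11b+Ly6G-Ly6Chigh and CD11b+Ly6G+Ly6Clow cells. No group received supernatant without TGF-β1, or medium conditioned by another cell type. The study asked whether factors released by MDSCs restrain the change of MSCs into myofibroblasts under TGF-β1. Nothing in the labels says that the 3 libraries of a group came from separate cultures or animals, so the p-values measure the spread between these libraries, which may be technical.

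BMPs are secreted ligands of the TGF-β superfamily. A BMP dimer brings together type I receptors such as BMPR1A and the type II receptor BMPR2, which phosphorylate SMAD1, SMAD5 and SMAD9, whereas TGF-β acts chiefly through its own receptors and SMAD2 and SMAD3. Gremlin 1, the product of Grem1, binds BMP2 and BMP4 outside the cell and keeps them from their receptors. The Id genes are classical direct targets of BMP SMADs. Their proteins lack a DNA-binding region and hold basic helix-loop-helix (bHLH) factors in complexes that cannot bind DNA. In MSCs, BMPs are known for driving bone and cartilage formation.

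The sequences around the start sites of Id2, Id3, Id4 and Grem1 are shown because these genes carry the main contrast, Id genes that were lower and an antagonist that was higher under TGF-β1. They come from RefSeq on GRCm38.p6, which had entries for 8 of the 10 genes, and each runs 5′ to 3′ on the gene's strand from 250 bases before the RefSeq start to 50 after it. Capitals mark GGCGCC, a GC-rich motif of BMP SMADs, and CAGAC or its reverse complement GTCTG, a motif of SMADs in general.
Id2, chr12:25096043-25096342, - strand: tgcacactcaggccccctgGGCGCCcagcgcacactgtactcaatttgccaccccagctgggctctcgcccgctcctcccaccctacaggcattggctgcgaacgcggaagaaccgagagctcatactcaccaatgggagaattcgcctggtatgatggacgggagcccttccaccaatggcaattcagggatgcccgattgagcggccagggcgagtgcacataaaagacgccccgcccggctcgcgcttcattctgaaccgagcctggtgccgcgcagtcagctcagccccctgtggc
Id3, chr4:136143572-136143871, + strand: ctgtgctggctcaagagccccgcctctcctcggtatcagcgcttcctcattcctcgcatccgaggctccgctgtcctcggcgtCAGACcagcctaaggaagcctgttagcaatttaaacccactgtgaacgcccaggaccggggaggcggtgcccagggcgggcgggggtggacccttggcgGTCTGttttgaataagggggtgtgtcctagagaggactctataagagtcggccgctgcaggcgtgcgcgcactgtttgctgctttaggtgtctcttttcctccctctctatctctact
Id4, chr13:48260866-48261165, + strand: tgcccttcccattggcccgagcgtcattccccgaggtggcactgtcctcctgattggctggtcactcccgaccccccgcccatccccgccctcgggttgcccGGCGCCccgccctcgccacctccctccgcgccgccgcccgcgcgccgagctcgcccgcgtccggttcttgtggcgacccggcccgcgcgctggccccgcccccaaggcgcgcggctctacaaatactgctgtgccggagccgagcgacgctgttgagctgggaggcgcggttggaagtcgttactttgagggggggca
Grem1, chr2:113758599-113758898, - strand: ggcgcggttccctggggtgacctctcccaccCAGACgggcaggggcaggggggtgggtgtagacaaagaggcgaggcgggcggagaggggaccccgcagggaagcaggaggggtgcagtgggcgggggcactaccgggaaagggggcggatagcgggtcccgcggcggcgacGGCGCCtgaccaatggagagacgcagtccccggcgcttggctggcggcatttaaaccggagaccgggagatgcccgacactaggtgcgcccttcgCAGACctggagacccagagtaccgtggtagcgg

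With the start base counted as 1 and no position 0, GGCGCC began at -231 in Id2, -148 in Id4 and -78 in Grem1. CAGAC began at -219 and 18 in Grem1 and at -167 and, as GTCTG, -68 in Id3. Outside the printed sequences, GGCGCC lay at -198 in Bmpr1a and -105 in Bmpr2, and CAGAC at -119 in Bmp6. The window of Bmp4 held neither motif. Both strands were searched, GGCGCC reads the same on both, and the matches do not overlap each other in these windows. GGCGCC occurred in 11.87% and CAGAC in 49.59% of the 32851 windows of this length, and the TATA-box letters TATAAA in 13.62% of all windows and in 0 of the 8. The 8 windows were GC-rich, at 59.33 to 79.33% G and C against a median of 52.67% over all windows. The RefSeq start of Id2 lies 1048 bases inside the gene as the annotation of the counts draws it, that of Id3 325 bases inside, that of Id4 112 bases before and that of Grem1 2 bases before. A match is a string of letters and says nothing about binding.

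The libraries held 73977669 to 84565450 counts. Mitochondrial genes took 2.81 to 3.79% of them. The 7 positive MSC markers (Itgb1, Cd44, Ly6a, Thy1, Nt5e, Pdgfra and Pdgfrb) were detected in every library, with sums of 499.5 to 597.3 FPKM, of which Itgb1 made up the largest part. The markers moved in both directions. Ly6a averaged 245.1 FPKM in untreated cells, 16.16 with TGF-β1, 92.5 with M-MDSC and 66.95 with G-MDSC supernatant, Pdgfra 13.96, 4.945, 5.685 and 6.428, and Thy1 4.49, 2.161, 1.724 and 1.549, while Itgb1 averaged 253.8, 385.3, 381.8 and 375.3. Cd44 (39.48 FPKM untreated, 53.0 with TGF-β1), Nt5e (0.407 and 1.003) and Pdgfrb (32.3 and 44.65) also averaged higher. Ly6a, Pdgfra and Thy1 thus moved with the Id genes between untreated and treated cells. The rest of the 7, Itgb1, Cd44, Nt5e and Pdgfrb, moved the other way. The part of a changed cell mix in the results was not tested. Kit and Pecam1, which the MSCs lacked in the study's flow cytometry, summed to at most 0.218. RNA of other tissues was present in the supernatant groups. The 5 hepatocyte markers were at 0 in all untreated and TGF-β1 libraries, at 50.85 to 56.16 FPKM in sum in the G-MDSC group and at 0.0762 and 0.176 in M-MDSC replicates 1 and 2. M-MDSC replicate 3 stood apart from these, with all 5 markers detected at a sum of 47.87, of which Alb made up 31.61. The 7 kidney tubule markers summed to 0.360 to 0.544 without supernatant, to 15.03, 11.61 and 76.62 in the M-MDSC group, the highest again in replicate 3, and to 41.84 to 55.72 in the G-MDSC group. Kap made up most of these supernatant sums, at 13.13, 9.20 and 69.22 in the M-MDSC group. Umod, Slc34a1 and Aqp2 were at 0 without supernatant and detected in every supernatant library. Cubn averaged 0.394 untreated, 0.454 with TGF-β1, 0.386 with M-MDSC and 0.432 with G-MDSC supernatant. The 12 myeloid markers, mostly Cd14, summed to 25.26 to 26.4 in untreated cells, 13.6 to 15.67 with TGF-β1, 20.35 to 25.86 with M-MDSC and 26.03 to 29.23 with G-MDSC supernatant. Of these markers Lyz2 was at 0.191 or less without supernatant, at 1.68, 0.651 and 2.29 with M-MDSC and at 2.11, 1.94 and 1.56 with G-MDSC supernatant. S100a9, at 0 without supernatant, was at 0.980, 0.258 and 0.490 in the M-MDSC libraries and at 0, 0 and 3.40 in the G-MDSC libraries, and Tyrobp was at 0.244 to 0.396 in the G-MDSC libraries and at 0.321 in M-MDSC replicate 3, against at most 0.0843 elsewhere. Other myeloid markers did not follow the supernatants. Ly6g was at 1.74 to 1.89 in untreated cells and at most 0.199 in every treated library. Csf1r was at 0.525 to 0.779 untreated, 1.01 to 1.06 with TGF-β1, 0.952 to 1.24 with M-MDSC and 0.963 to 1.34 with G-MDSC supernatant. Mpo and Elane were at 0 in all libraries. The 6 endothelial markers summed to 0.566 to 0.829 in the G-MDSC libraries and to 0.325 to 0.538 in the others, with Cldn5 at 0.103 to 0.257 in the G-MDSC group and at most 0.0193 elsewhere. Tek went the other way, averaging 0.0858 untreated, 0.0847 with TGF-β1, 0.0258 with M-MDSC and 0.0439 with G-MDSC supernatant. Kdr averaged 0.152, 0.101, 0.173 and 0.162 in the same order. The part of these RNAs in the results was not tested, and results that rest on M-MDSC replicate 3 are given with and without it.

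**Figure D1:**
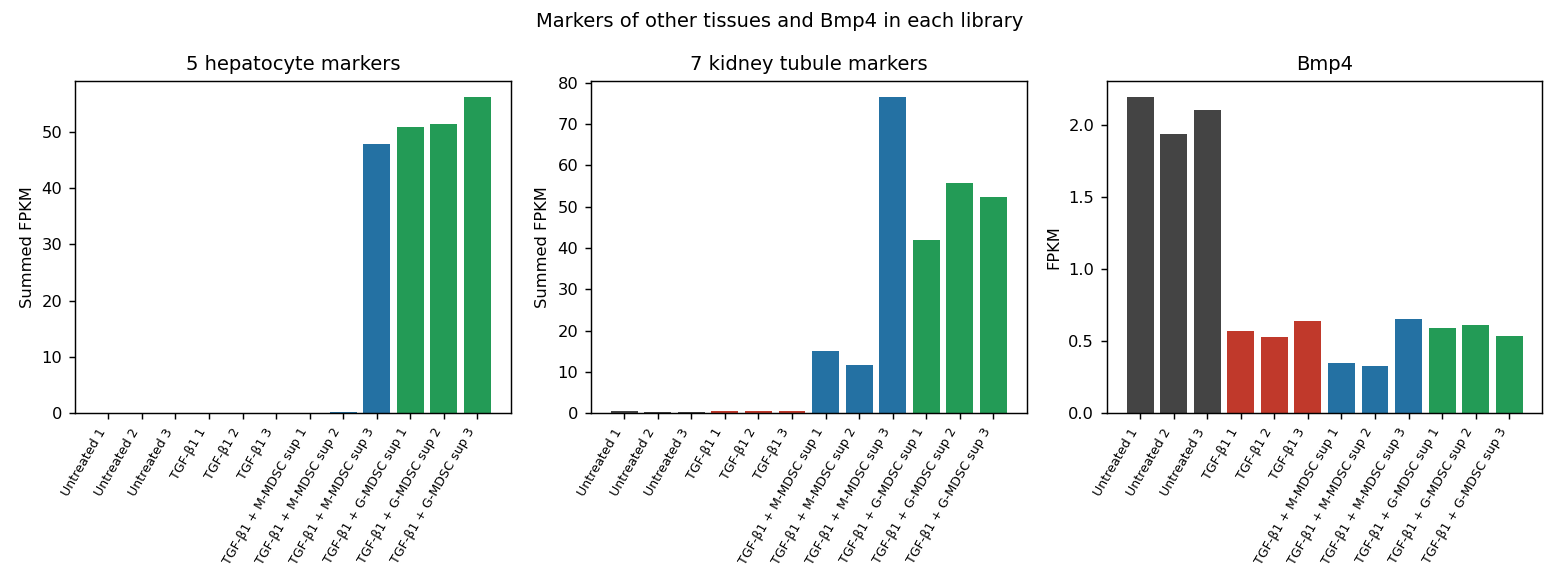
Summed FPKM of 5 hepatocyte markers (left) and 7 kidney tubule markers (middle) and the FPKM of Bmp4 (right), one bar per library, colored by group. M-MDSC replicate 3 carries 47.87 FPKM of hepatocyte markers, close to the G-MDSC libraries, and the highest Bmp4 of its group.

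With TGF-β1 alone, the Id genes and Bmp4 were lower than in untreated cells, and Grem1 and, by less, both receptors were higher. All 7 genes tested differed between TGF-β1-treated and untreated MSCs at an adjusted p-value under 0.05 (edgeR quasi-likelihood F test, Benjamini-Hochberg adjustment over all genes tested). Grem1, Bmpr1a and Bmpr2 were higher, and Bmp4, Id1, Id2 and Id3 were lower. Bmp4 reached the filter through the untreated libraries alone, so its lower value was built into its being tested, and it lends no support to these counts or the ones that follow. Among all genes tested 16.1% were called higher and 17.9% lower. The groups did not overlap in FPKM for 6 of the 7, all but Bmpr1a, against 46.7% of all genes tested. By the criterion of the study, which asks for more than a 2-fold rise or fall and an unadjusted p under 0.05, 5 of the 7 were called and 6.74% of all genes. These bulk data cannot tell fewer cells of a type from less RNA per cell.

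**Figure D2:**
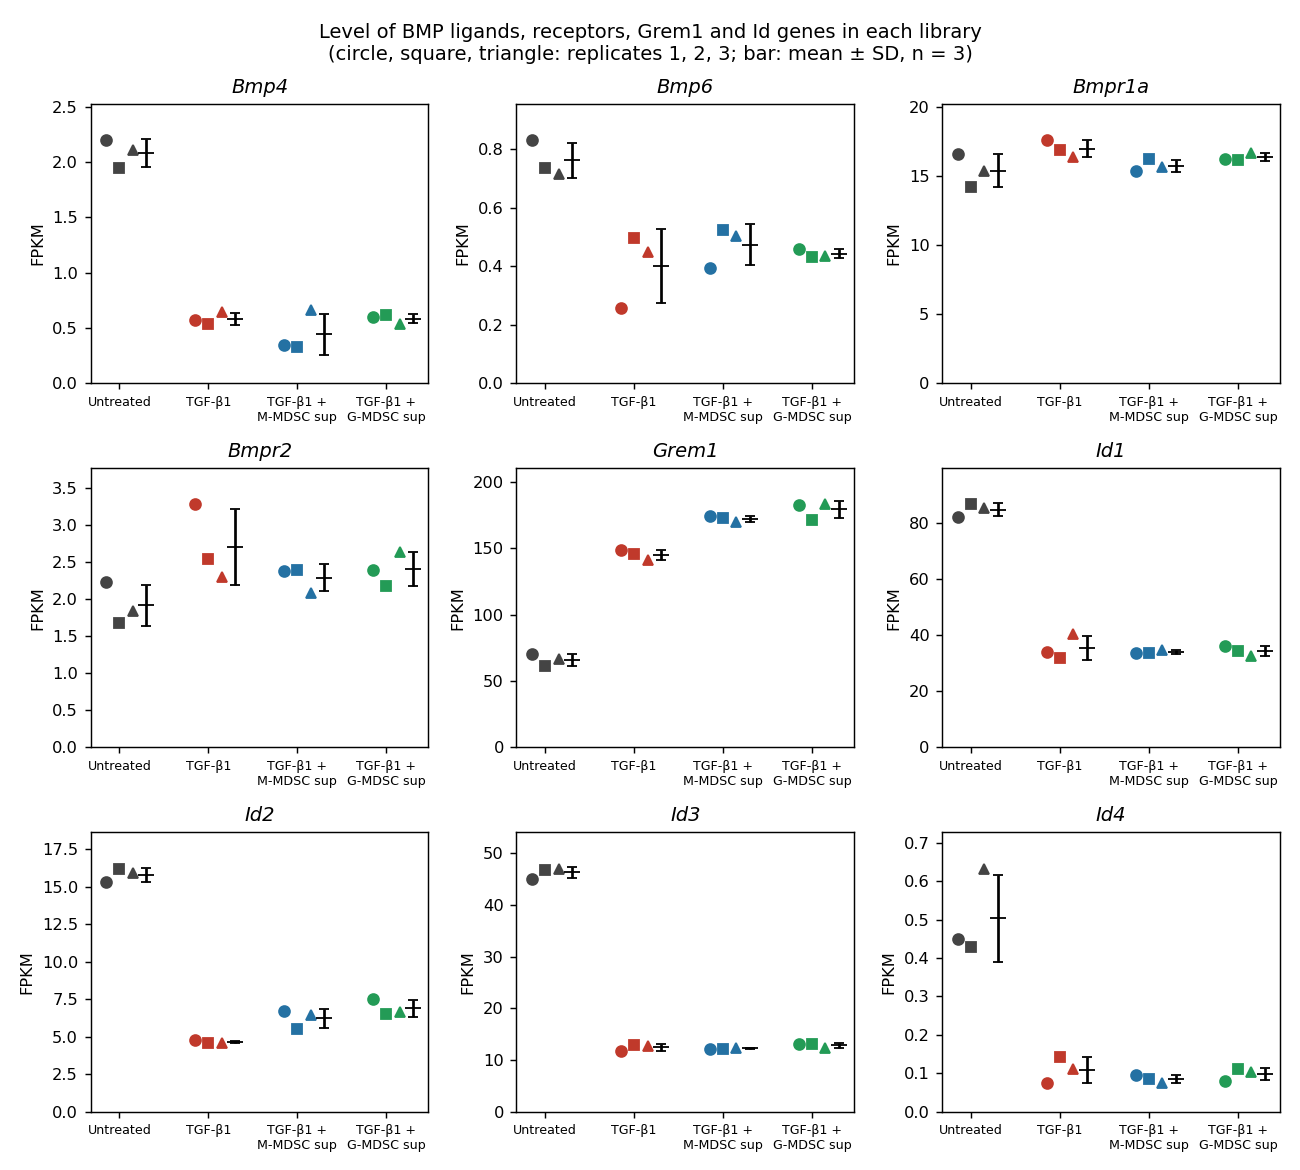
FPKM of the 9 genes with counts in every library, one panel per gene with its own linear axis from 0. Circles, squares and triangles are replicates 1, 2 and 3, and the bar is the mean ± SD of 3 libraries. In Id1, Id2, Id3, Id4 and Bmp4 all 9 TGF-β1-treated libraries lie below the 3 untreated ones, and in Grem1 all 9 lie above them.

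Of the ligands, Bmp2 was practically absent from these cells. Bmp2 (chr2:133552159-133562885, + strand) had 0 counts in 11 libraries and 4 counts in G-MDSC replicate 3. A count of 0 allows up to 3 counts of the 73977669 to 84565450 in a library, counting error only. No fold change of Bmp2 is therefore given.

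Bmp4, a ligand that drives bone formation, was the most abundant of the BMP ligands looked at in untreated MSCs, though at a low level. Bmp4 (chr14:46383520-46390669, - strand) stood at 2.20, 1.94 and 2.11 FPKM in the untreated libraries and at 0.575, 0.532 and 0.640 with TGF-β1. Every TGF-β1 library lay below every untreated one, on 110 to 130 counts against 409 to 425. The log2 fold change was -1.77 (SE 0.243, 95% interval -2.31 to -1.23, adjusted p = 0.000208). Bmp4 reached the filter in the untreated group alone, so a lower value under treatment was built into its being tested. The antisense gene Gm15222, which overlaps Bmp4 over 1764 bases, had 2 to 20 counts per library.

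Bmp6, known for its role in iron balance and also an osteogenic ligand, did not pass the FPKM filter. Its values here are from a fit with a filter on counts in place of FPKM, which kept 18761 genes and, of the 10, all but Bmp2. Bmp6 (chr13:38345107-38500302, + strand) had 0.831, 0.737 and 0.717 FPKM in untreated MSCs and 0.259, 0.497 and 0.448 with TGF-β1. All 3 treated values were lower, with replicate 1 well under the other 2. The log2 fold change was -0.86 (SE 0.224, adjusted p = 0.0156), in a fit that called 24.6% of its genes in either direction. Without TGF-β1 replicate 1 it was -0.62 (adjusted p = 0.0258), and without untreated replicate 1 it was -0.80 with an adjusted p of 0.05, no longer under the threshold. The last 224 bases of Bmp6 overlap Txndc5 on the opposite strand, which had 26537 counts in untreated replicate 1, 33151 in TGF-β1 replicate 1 and 54938 to 65073 in the other libraries, against 91 to 277 for Bmp6. Whether counting used the strand is not given in the sources used here, so reads of the shared bases cannot be told apart. The value of Bmp6 is uncertain for that reason.

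None of the 12 further BMP and GDF ligands of the list passed the filter, and their highest value in any library was 0.303 FPKM, of Gdf7.

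Both receptors rose slightly. Bmpr2 (chr1:59763400-59879014, + strand), the type II receptor, had 2.23, 1.68 and 1.85 FPKM in untreated MSCs and 3.28, 2.54 and 2.30 with TGF-β1. The lowest treated library lay just above the highest untreated one. The log2 fold change was 0.55 (SE 0.142, 95% interval 0.24 to 0.87, adjusted p = 0.0113). Bmpr1a (chr14:34410734-34502687, - strand), the type I receptor, had 16.6, 14.3 and 15.4 FPKM untreated and 17.6, 16.9 and 16.4 treated, and the groups overlapped. Its log2 fold change was 0.20 (SE 0.0542, adjusted p = 0.0163). The call of Bmpr1a was lost without untreated replicate 2 (0.14, adjusted p = 0.0574) and without TGF-β1 replicate 1 (0.17, adjusted p = 0.0616), and also in limma on log2(FPKM + 1), at 0.13 with an adjusted p of 0.074.

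Grem1 was the most abundant of the 10 genes under TGF-β1. Grem1 (chr2:113746164-113758646, - strand) was at 70.3, 61.2 and 66.3 FPKM in untreated cells and at 148.7, 145.5 and 141.3 with TGF-β1. The groups lay far apart, and the mean rose from rank 748 to rank 322 of all genes by FPKM. Its fold change was 2.29, or 1.20 on the log2 scale (SE 0.0491, 95% interval 1.09 to 1.31, adjusted p = 2.36e-08).

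All 4 Id genes fell, Id1, Id2 and Id3 in the main test and Id4 with the filter on counts, Id1 by the smallest fold. Id1 (chr2:152736251-152737410, + strand), the most abundant of them, went from 82.4, 86.8 and 85.5 FPKM untreated to 34.0, 32.0 and 40.3 with TGF-β1. The treated libraries lay below the untreated ones by a wide gap, with replicate 3 the highest of the treated. Its log2 fold change was -1.20 (SE 0.0763, 95% interval -1.37 to -1.03, adjusted p = 6.09e-07).

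Id3 (chr4:136143497-136145392, + strand) went from 45.0, 46.9 and 47.0 FPKM to 11.7, 12.8 and 12.7. Its 3 libraries per group were tightly placed and the groups were well separated. The log2 fold change was -1.84 (SE 0.0504, 95% interval -1.95 to -1.73, adjusted p = 1.41e-09), so that 0.280 of the untreated level was left.

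Id2 (chr12:25093799-25097140, - strand) went from 15.3, 16.2 and 16.0 FPKM to 4.76, 4.58 and 4.61. The treated libraries were nearly alike. Its log2 fold change was -1.71 (SE 0.0857, 95% interval -1.90 to -1.52, adjusted p = 9.97e-08).

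Id4 (chr13:48261228-48266026, + strand) was scarce, at 0.448, 0.428 and 0.633 FPKM untreated and 0.0754, 0.142 and 0.110 with TGF-β1. These values rest on 148 to 219 and on 27 to 50 counts, and the groups did not overlap. With the filter on counts its log2 fold change was -2.13 (SE 0.284, adjusted p = 0.000193). The 95% interval, -2.75 to -1.50, takes in the fold changes of Id2 and Id3, so its fall cannot be ranked against theirs.

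Added up per length, the 4 Id genes gave 147.5 ± 3.8 FPKM (SD, n = 3) in untreated cells and 52.64 ± 4.47 with TGF-β1, mostly from Id1. The mix shifted with the fall. Id1 made up 57.34 to 57.74% of the sum in untreated libraries and 64.56 to 69.83% in TGF-β1 libraries, while Id3 went from 31.18 to 31.54% to 21.99 to 25.91%. Id2 moved from 10.69 to 10.8% to 7.99 to 9.39%, and Id4 never exceeded 0.424%. Grem1 FPKM divided by Bmp4 FPKM was 31.64 ± 0.293 in untreated cells and 250.9 ± 27.32 with TGF-β1. These sums and ratios repeat the genes' own changes and were not tested.

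**Figure D3:**
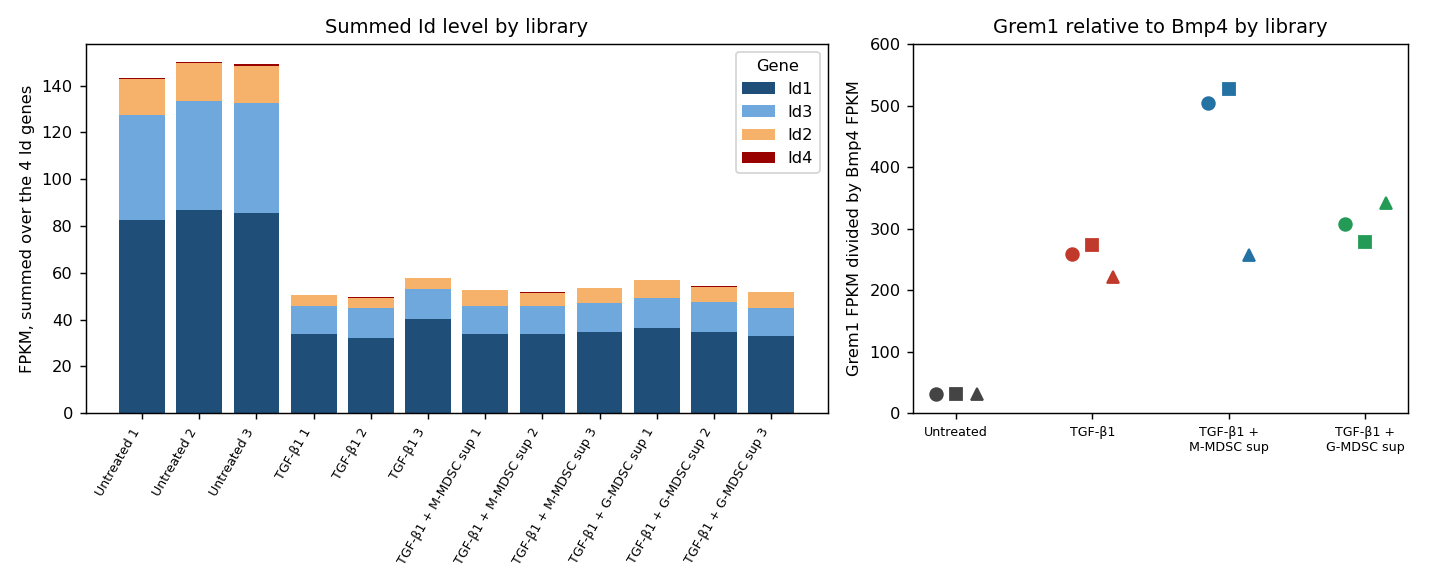
Left, FPKM of Id1, Id3, Id2 and Id4 stacked for each library. Right, Grem1 FPKM divided by Bmp4 FPKM, one point per library (circle, square, triangle: replicates 1, 2, 3). The summed Id level is 143.2 to 150.3 in untreated and 49.54 to 57.77 in all treated libraries, and the ratio of M-MDSC replicate 3 (257.6) lies away from the 503.8 and 526.8 of its group.

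In the M-MDSC group, Id2 and Grem1 were above TGF-β1 alone, and Id1, Id3 and the receptors did not pass the test. Of the 7 genes 2 were called higher and 0 lower by edgeR, with Bmpr1a lower at an unadjusted p of 0.0369, against 2.83% higher and 1.95% lower of all genes tested. Id2 had 6.75, 5.54 and 6.46 FPKM with M-MDSC supernatant, each above the TGF-β1 libraries. Its log2 fold change was 0.40 (SE 0.084, 95% interval 0.22 to 0.59, adjusted p = 0.0198), and Id2 still lay 1.31 below untreated cells on the log2 scale, a log2 fold change of -1.31 (adjusted p = 7.16e-07).

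Grem1 had 174.1, 172.7 and 169.4 FPKM, again each above TGF-β1 alone, and so farther from the untreated level and not nearer to it. Its log2 fold change against TGF-β1 was 0.22 (SE 0.0485, 95% interval 0.12 to 0.33, adjusted p = 0.0248). Both calls were close to the threshold. Leaving out any of the 6 libraries of the comparison took the adjusted p of Grem1 to between 0.0547 and 0.081, at log2 fold changes of 0.21 to 0.24. For Id2 the call was lost with any of them left out except M-MDSC replicate 2, at adjusted p-values of 0.056 to 0.0777.

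Bmp4 depended on the library that stood apart. It was at 0.346 and 0.328 FPKM in M-MDSC replicates 1 and 2 and at 0.658 in replicate 3, the first 2 below and the last above every library of TGF-β1 alone. With all libraries the log2 fold change was -0.42 (SE 0.242, adjusted p = 0.433). Without replicate 3 it was -0.82 (SE 0.152, adjusted p = 0.0173), while Id2 (0.38, adjusted p = 0.0777) and Grem1 (0.24, adjusted p = 0.0592) missed the threshold, so that the genes called went from Id2 and Grem1 to Bmp4. Within the M-MDSC group the hepatocyte and kidney markers were highest in replicate 3, as was Bmp4. The G-MDSC libraries, with hepatocyte markers at 50.85 to 56.16 FPKM in sum, had Bmp4 at 0.536 to 0.616. The libraries of TGF-β1 alone, with those markers at 0, had Bmp4 at 0.532 to 0.640. The part of RNA from other tissues in the Bmp4 values was not tested.

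The remaining genes did not pass the test with M-MDSC supernatant against TGF-β1 alone, and the intervals of the scarcer ones were wide. Id1 was at 33.7, 33.8 and 34.8 FPKM, a log2 fold change of -0.08 (95% interval -0.25 to 0.09, adjusted p = 0.675). Id3 was at 12.2, 12.2 and 12.4, and its interval, -0.15 to 0.07, was the narrowest of the Id genes. Bmpr1a was at 15.4, 16.2 and 15.7 (-0.13, 95% interval -0.25 to -0.0096, adjusted p = 0.254) and Bmpr2 at 2.39, 2.40 and 2.09 (-0.26, 95% interval -0.58 to 0.05, adjusted p = 0.398). Of the scarce genes, Bmp6 was at 0.393, 0.525 and 0.505 (0.22, 95% interval -0.27 to 0.72, adjusted p = 0.73) and Id4 at 0.0957, 0.0852 and 0.0759 (-0.34, 95% interval -0.97 to 0.28, adjusted p = 0.655), both with the filter on counts.

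In the G-MDSC group the same 2 genes were higher than with TGF-β1 alone, and 0 were lower by edgeR or DESeq2, at the adjusted threshold or at an unadjusted edgeR p under 0.05, against 3.1% and 2.46% of all genes tested. Id2 had 7.55, 6.51 and 6.63 FPKM, all above the TGF-β1 libraries, with a log2 fold change of 0.54 (SE 0.084, 95% interval 0.36 to 0.73, adjusted p = 0.00296). Grem1 had 182.8, 171.5 and 182.9 FPKM and a log2 fold change of 0.28 (SE 0.0485, 95% interval 0.17 to 0.38, adjusted p = 0.00634). Neither call was lost with any of the 12 libraries left out. All 3 G-MDSC libraries carried hepatocyte RNA at 50.85 to 56.16 FPKM in sum, while M-MDSC replicates 1 and 2, at 0.0762 and 0.176, also had Grem1 and Id2 above every library of TGF-β1 alone. Those M-MDSC libraries did carry kidney tubule RNA, mostly of Kap, at 15.03 and 11.61 FPKM in sum against 0.360 to 0.544 without supernatant. They also carried Lyz2 at 1.68 and 0.651 against at most 0.191. The part of RNA from other cells in the Grem1 and Id2 calls was not tested. By the study's fold rule 0 of the 7 genes were called in either supernatant comparison, since the largest fold change was 1.46, against 2.18% of all genes with M-MDSC and 2.17% with G-MDSC supernatant. The M-MDSC and G-MDSC comparisons share the libraries of TGF-β1 alone, so they are not independent of each other.

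The other genes with G-MDSC supernatant did not pass the test against TGF-β1 alone. Id1 was at 36.2, 34.6 and 32.8 FPKM (-0.06, adjusted p = 0.763), Id3 at 13.2, 13.1 and 12.3 (0.02, adjusted p = 0.891), and Bmp4 at 0.596, 0.616 and 0.536 (-0.02, adjusted p = 0.977). Bmpr1a was at 16.3, 16.2 and 16.7 (-0.08, adjusted p = 0.544) and Bmpr2 at 2.39, 2.18 and 2.64 (-0.20, adjusted p = 0.564). Bmp6 was at 0.460, 0.431 and 0.435 (0.11, adjusted p = 0.906) and Id4 at 0.0798, 0.111 and 0.105 (-0.17, adjusted p = 0.883), both with the filter on counts.

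**Figure D4:**
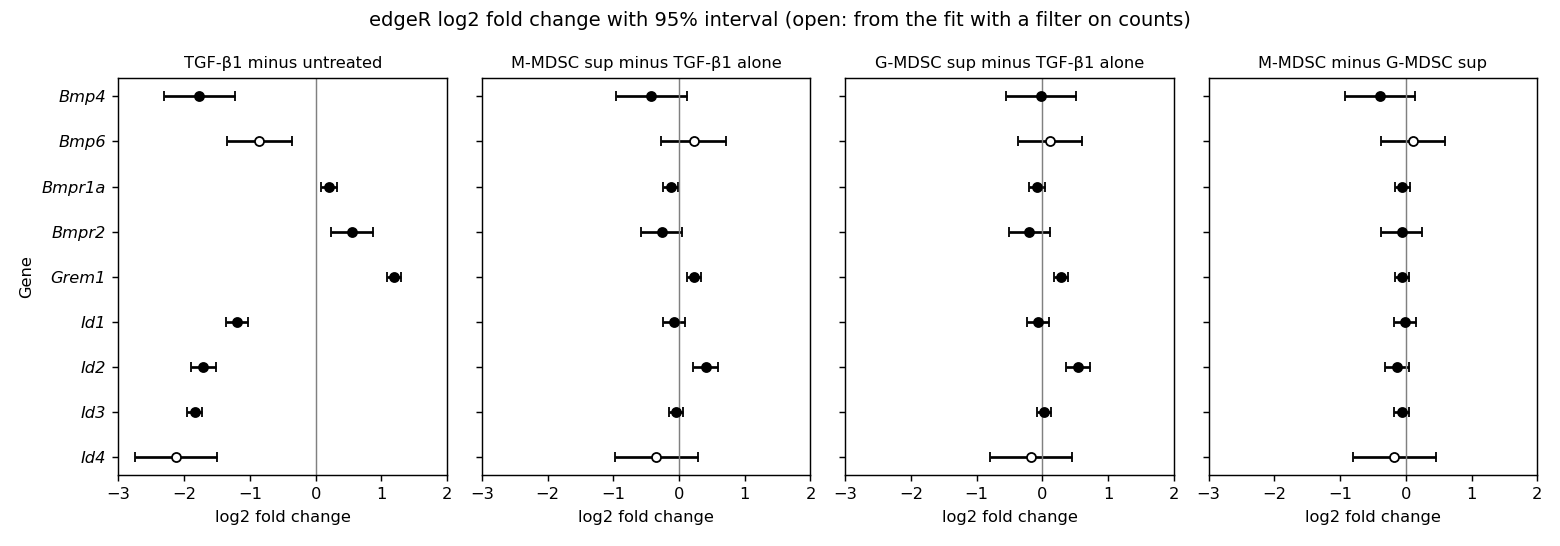
Log2 fold changes from edgeR with 95% intervals for 9 genes in 4 comparisons, open points being Bmp6 and Id4 from the fit with a filter on counts. TGF-β1 moved Id3 by -1.84 and Grem1 by 1.20, while the supernatants moved Id2 by 0.40 and 0.54 and Grem1 by 0.22 and 0.28.

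Compared directly, the 2 supernatants did not separate these genes. Of the 7 genes 0 were called by edgeR and 0 by DESeq2, and all 7 unadjusted edgeR p-values were above 0.05, the lowest being 0.128 for Id2. Of all genes tested, M-MDSC supernatant exceeded G-MDSC supernatant in 0.0999% and fell short of it in 0.025% at the adjusted threshold, and 0.549% passed the study's fold rule, by which again 0 of the 7 were called. The intervals bound what could have been missed. That of Id3 ran from -0.17 to 0.04, of Grem1 from -0.16 to 0.05, of Id1 from -0.18 to 0.15 and of Id2 from -0.32 to 0.05, and that of Bmp4, from -0.93 to 0.14, was the widest of the 7. Without M-MDSC replicate 3 the log2 fold change of Bmp4 was -0.79 in place of -0.40, with an adjusted p of 0.0946.

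Against untreated cells, 5 of the 7 genes were called in each supernatant group, one of them Bmp4, which reached the filter through the untreated libraries alone. These comparisons and that of TGF-β1 share the 3 untreated libraries, so they are not independent. Grem1 was higher, by 1.42 on the log2 scale with M-MDSC and 1.47 with G-MDSC supernatant. Lower were Id3 (-1.88 and -1.82), Id1 (-1.28 and -1.27), Id2 (-1.31 and -1.17) and Bmp4 (-2.19 and -1.80), all with adjusted p-values of at most 0.000192. The same 5 genes passed the study's fold rule in each comparison. Called higher were 16.4% of all genes in each of these comparisons, and lower 18.9% with M-MDSC and 18.4% with G-MDSC supernatant, and the fold rule called 6.98% and 6.8%. The receptors did not pass, with Bmpr2 at 0.29 (adjusted p = 0.141) and 0.36 (adjusted p = 0.0764) and Bmpr1a at 0.07 (adjusted p = 0.379) and 0.12 (adjusted p = 0.119). With the filter on counts, Id4 was lower in both groups (-2.47, adjusted p = 7.14e-05, and -2.29, adjusted p = 0.000119). Bmp6 was at -0.63 with M-MDSC supernatant (adjusted p = 0.0589) and lower with G-MDSC supernatant, at -0.74 (adjusted p = 0.03), while the direct difference between the supernatants was 0.11 (95% interval -0.38 to 0.60, adjusted p = 1). That fit called 26.5% and 26.7% of its genes in either direction. Without M-MDSC replicate 3 the count of the main test stayed at 5. With G-MDSC supernatant Bmpr2 was past the threshold without untreated replicate 1 (0.48, adjusted p = 0.031) and without TGF-β1 replicate 1 (0.36, adjusted p = 0.0351), and so was Bmpr1a without untreated replicate 1 (0.18, adjusted p = 0.0181).

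Over the 4 groups the order of levels differed by gene. For Grem1 it ran from untreated through TGF-β1 and M-MDSC to G-MDSC supernatant, at means of 65.93 ± 4.56, 145.1 ± 3.69, 172.1 ± 2.39 and 179.1 ± 6.57 FPKM (SD, n = 3), and the last pair overlapped. For Id2 it ran from untreated through G-MDSC and M-MDSC supernatant to TGF-β1, at 15.82 ± 0.474, 6.893 ± 0.569, 6.247 ± 0.631 and 4.648 ± 0.0941, with the supernatant groups overlapping. For Id1 the 3 treated groups stood at 35.46 ± 4.36, 34.53 ± 1.71 and 34.11 ± 0.577 under 84.89 ± 2.24 untreated, and for Id3 at 12.85 ± 0.490, 12.43 ± 0.597 and 12.25 ± 0.104 under 46.3 ± 1.11, in both cases overlapping one another. The sum of the Id genes stayed at 52.69 ± 1.03 with M-MDSC and 54.37 ± 2.61 with G-MDSC supernatant, while the share of Id2 in it was 10.73 to 12.78% and 11.99 to 13.23%, above the 7.99 to 9.39% of TGF-β1 alone in every library. Grem1 divided by Bmp4 was 503.8, 526.8 and 257.6 in the M-MDSC and 306.9, 278.2 and 341.1 in the G-MDSC libraries.

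The other genes of the pathway, a list of 56 of which 26 passed the filter, moved in both directions under TGF-β1. Of the 26, 12 were higher, 5 lower and 9 not past the test, beside 16.1% higher and 17.9% lower of all genes tested, with a median log2 fold change of 0.09 over the list and of 0.000478 over all genes tested. Those named by size were Atoh8, Fstl3, Bmper and Bmpr1b. By class, the SMADs and their ubiquitin ligases gave 6 higher and 1 lower of 7 tested, the receptors and co-receptors 2 and 2 of 6, the antagonists and modulators 3 and 1 of 7, the other BMP target genes 1 and 1 of 3, and the 3 bHLH partners of ID proteins, Tcf3, Tcf4 and Tcf12, 0 by edgeR, also at an unadjusted p under 0.05.

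Among the secreted modulators, Fstl3, a follistatin-like protein that binds activins, went from 3.75, 4.40 and 2.83 to 11.5, 12.8 and 11.4 FPKM, without overlap (log2 fold change 1.76, SE 0.134, adjusted p = 2.45e-06). Bmper, which binds BMPs and is known to act as an inhibitor or an enhancer, went the other way, from 13.1, 11.8 and 12.8 to 4.68, 4.35 and 4.89 FPKM (-1.38, SE 0.0666, adjusted p = 7.95e-08). Bmper was the only one of the 7 tested antagonists and modulators called lower.

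Bmpr1b, the second type I receptor for BMPs, had 2.04, 1.97 and 1.903 FPKM untreated and 4.495, 3.83 and 3.68 with TGF-β1 (1.08, SE 0.0971, adjusted p = 8.84e-06). Among the tested receptors and co-receptors of the list, Bmpr1b had the largest change, from a level below that of Bmpr1a in every library. Atoh8, a bHLH factor induced by BMP SMADs, fell from 5.09, 5.72 and 4.98 to 0.753, 0.747 and 0.797 FPKM (-2.72, SE 0.167, adjusted p = 4.7e-07). Like Bmp4, Atoh8 passed the filter through the untreated group (of the treated libraries only G-MDSC replicates 1 and 2, at 1.05 and 1.08 FPKM, reached it), so a lower value under TGF-β1 was built into its being tested.

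**Figure D5:**
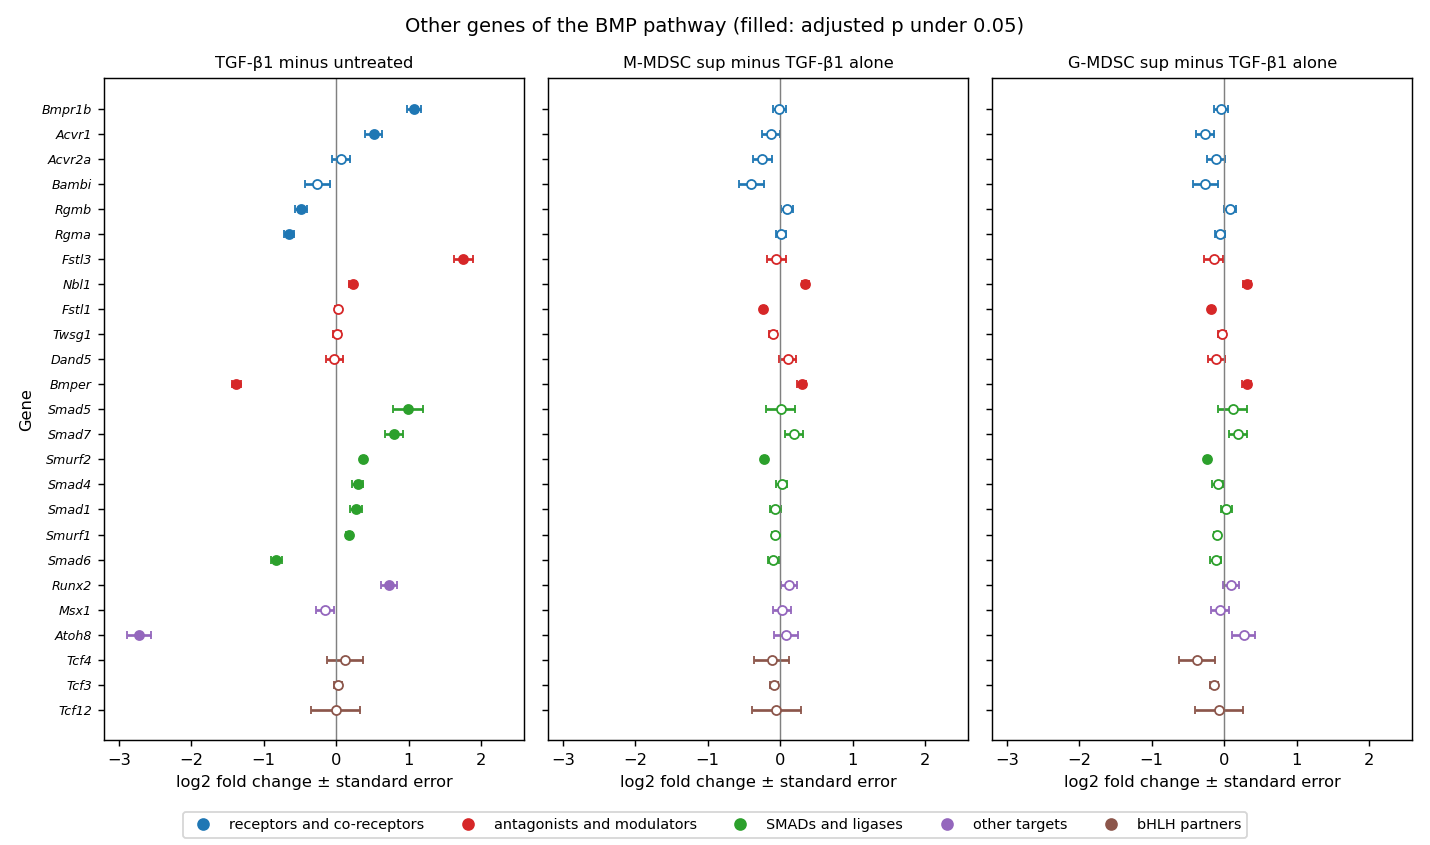
Log2 fold change ± standard error of 25 of the 26 tested genes of the BMP pathway list, colored by class, for TGF-β1 against untreated and for each supernatant against TGF-β1 alone. Filled points passed the test: 16 under TGF-β1, from -2.72 (Atoh8) to 1.76 (Fstl3), and 4 with each supernatant, all within 0.35 of 0.

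With M-MDSC supernatant 2 genes of the list were higher and 2 lower than with TGF-β1 alone, and with G-MDSC supernatant likewise, of 26 tested. Over all genes tested the shares were 2.83% higher and 1.95% lower with M-MDSC and 3.1% and 2.46% with G-MDSC supernatant. Nbl1, a BMP antagonist of the DAN family, had 27.3, 27.9 and 25.4 FPKM with M-MDSC and 26.4, 26.3 and 26.3 with G-MDSC supernatant, above the 20.6, 21.6 and 20.1 of TGF-β1 alone (0.35, adjusted p = 0.00186, and 0.32, adjusted p = 0.00324). Bmper, at 5.93, 5.40 and 6.03 and at 5.86, 5.59 and 6.13 FPKM, was also higher (0.30, adjusted p = 0.0272, and 0.31, adjusted p = 0.0196). Fstl1, a follistatin-like protein, was lower (-0.23, adjusted p = 0.00215, and -0.17, adjusted p = 0.0114), and so was Smurf2, a ligase that marks SMADs and receptors for degradation (-0.22, adjusted p = 0.00326, and -0.23, adjusted p = 0.00197). The calls of Bmper were close to the threshold. With M-MDSC supernatant Bmper lost its call without TGF-β1 replicate 1 (adjusted p = 0.0804), TGF-β1 replicate 2 (0.113), M-MDSC replicate 1 (0.0897) or M-MDSC replicate 3 (0.107), which left 3 genes called in each case. With G-MDSC supernatant it lost it without TGF-β1 replicate 1 (adjusted p = 0.0578), TGF-β1 replicate 2 (0.084), G-MDSC replicate 1 (0.0633) or G-MDSC replicate 3 (0.0672). Fstl1 with G-MDSC supernatant also lost its call without TGF-β1 replicate 2 (adjusted p = 0.0505) and without G-MDSC replicate 1 (0.0589), where 2 genes were left. Between the supernatants 0 of the 26 were called by edgeR or DESeq2, and 0 had an unadjusted edgeR p under 0.05.

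Against untreated cells the list gave 10 higher and 7 lower genes of 26 in each supernatant group, beside 16.4% higher in each and 18.9% (M-MDSC) and 18.4% (G-MDSC) lower of all genes tested. The genes named by size with M-MDSC supernatant were those named under TGF-β1, at log2 fold changes of -2.64 for Atoh8, 1.71 for Fstl3, -1.08 for Bmper and 1.07 for Bmpr1b. With G-MDSC supernatant, Smad5, a SMAD that BMP receptors phosphorylate, was among the genes named by size in place of Bmpr1b (1.04), at 1.11 (SE 0.206, adjusted p = 0.00165), with 10.9, 11.5 and 13.8 FPKM against 5.35, 7.60 and 4.18 untreated. Smad5 was higher in the other treated groups too, by 0.99 (adjusted p = 0.00335) with TGF-β1 alone and 1.00 (adjusted p = 0.00309) with M-MDSC supernatant. Without M-MDSC replicate 3 the M-MDSC count remained 17.

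The genes whose profile over the 12 libraries was most like that of Id1, Id3 or Bmp4 were found by the root mean square difference of log2(FPKM + 1) after centring each gene, a description only. For Id1 they were Wnt4 (0.0699), Pparg (0.0839) and C1rl (0.0912). Wnt4, a WNT ligand, had 2.04 FPKM on average in untreated cells and 0.234 to 0.318 in the treated groups, and Pparg, the regulator of fat cell formation, 5.70 and 1.64 to 1.77. For Id3 they were Ephx1 (0.0674), Dio3 (0.0732) and Atoh8 (0.0768), and Atoh8 averaged 5.26 FPKM in untreated cells and 0.765 to 0.940 in the treated groups. For Bmp4 they were Vcam1 (0.0829), an adhesion molecule, Tshz1 (0.0891) and H60b (0.0916). Wnt4, C1rl, Dio3 and H60b reached the filter through the untreated libraries alone. A lower value under treatment was thus built into their being among the genes searched. Since the pseudocount compresses low values, genes of a larger fold change at a lower level can come close to Id1 on this scale.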

How the data were processed

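Poly(A) mRNA of mouse bone marrow MSCs was sequenced in 12 libraries, 3 for each of 4 groups, with a kit that marks strand by dUTP. Per the paper and the labels, the authors checked reads with fastp, used HISAT2 (2.0.4) on GRCm38, StringTie (1.3.4d) and gffcompare, and the submitters' processing notes also name cutadapt 1.9. The deposited table holds counts and FPKM calculated by the authors for 55401 genes. The counting tool and its strand setting are not given in the sources used here. A count of 0 is written as FPKM 0.0001, and 44.32% of nonzero counts up to 12 are multiples of 4. The table's groups were taken from the library titles.

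The 12016 genes that reached an FPKM of 1 in 3 or more libraries were fitted on counts with edgeR 4.0.16 in R 4.3.3, all 4 groups in 1 fit, TMM scaling (factors 0.978 to 1.03), a two-sided quasi-likelihood F test and Benjamini-Hochberg adjustment over all genes tested, with a threshold of 0.05. Log2 fold changes in the text are from this fit of counts, and levels are FPKM. Fits were tested on simulated data. Alternatives were DESeq2 1.42.0, limma 3.58.1 on log2(FPKM + 1) and log2(FPKM + 0.1), median-ratio scaling, no FPKM filter, a filter on counts (18761 genes), counts divided by 4, a fit of 2 groups only, the study's fold rule, a replicate block and leaving out each library. Leaving out libraries in the fit of Bmp6 and Id4 was added after the data were seen. Figures were drawn with matplotlib 3.10.9 in Python 3.11.15.

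The 10 genes and all lists were chosen with earlier results of these data known. All 10 were named. Values of some single genes are left out of the text and the figures, and those genes stay in the counts and medians of the list. Of the pathway list, up to 5 genes per comparison were named, those of largest log2 fold change past the test whose groups do not overlap in FPKM, and 3 genes most like each of Id1, Id3 and Bmp4. Overlapping genes were read from the GENCODE M21 annotation of GRCm38, and promoters from RefSeq. Coordinates of genes are those of the deposited table.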

Additional observations from a re-analysis of the deposited data

How the results depend on the processing

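The calls of Id1, Id2, Id3, Grem1 and Bmp4 under TGF-β1 against untreated cells were kept under every alternative run, and no result reversed. The cause of each change below was not tested. Under the study's fold rule, which sets a minimum size, the pathway list gave 5 genes under TGF-β1 against untreated, 5 with M-MDSC and 6 with G-MDSC supernatant against untreated, and 0 with each supernatant against TGF-β1, where 0 of the 7 genes of the main set were called as well. With only the 2 groups compared in the fit, 1 gene (Grem1) was called for M-MDSC supernatant against TGF-β1, and 2 of the list for G-MDSC supernatant against TGF-β1. With each library left out in turn, M-MDSC supernatant against TGF-β1 gave 0 to 2 genes, and the list for G-MDSC supernatant against TGF-β1 gave 2 to 4. Over the other comparisons the counts stayed within 1.5 times the main value. Of the single genes, Bmpr1a lost its call under TGF-β1 in both limma fits (0.13, adjusted p = 0.074, and 0.14, adjusted p = 0.0751), and in the fit of 2 groups (0.20, adjusted p = 0.0665), and Id2 its call with M-MDSC supernatant in the fit of 2 groups (0.42, adjusted p = 0.0807). In that fit Bmper lost its call with M-MDSC (adjusted p = 0.0991) and G-MDSC (0.0673) supernatant and Fstl1 with G-MDSC supernatant (0.0615). Bmpr2 with G-MDSC supernatant against untreated was called by DESeq2 (0.37, adjusted p = 0.0333).

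The residuals showed no pairing by replicate number. Those of same-numbered libraries had a mean correlation of -0.000255 over 18 pairs (-0.105 to 0.0743), against 0.000144 over 36 pairs of different numbers. These correlations cannot exclude that same-numbered libraries were prepared together. With the replicate block, the 7 genes gave 7 calls under TGF-β1 against untreated and 6 with G-MDSC supernatant against untreated, where Bmpr2 was added (0.37, adjusted p = 0.047), and the list gave 16 with M-MDSC supernatant against untreated. Depth limits Bmp2 (0 to 4 counts) and Id4 (26 to 219 counts).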
